A study of Mus musculus with 2 samples.

Results

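Immediate early genes were examined in the cerebrum of laggard (lag) mice and a control at postnatal day 14 (P14). The 10 genes were Npas4, Fos, Fosb, Junb, Egr1, Egr2, Nr4a1, Arc, Dusp1 and Ier2. They were chosen by name, with earlier results of these data known. The choice was made from 18194 genes that had a probe set paired with them alone in the platform annotation. All 10 had such a probe set, 9 had 1 and Egr2 had 2, which gave 11 probe sets. The study compared total RNA of 1 wild-type and 1 mutant cerebrum sample on 1 Affymetrix mouse expression array each. The mutant carries the lag allele of Kif14, a spontaneous splice acceptor mutation before exon 5 in a kinesin that acts in cytokinesis, inherited as an autosomal recessive trait, and the animals are ataxic with small, poorly myelinated brains. The control was wild-type, and the paper describes littermates as controls in several of its experiments. The mutation arose on a mixed 129/SVJ, C57BL/6N and DBA/2N background. It was repeatedly backcrossed to C57BL/6J, with no generation named for the mice of the arrays. Not stated are the number of mice behind a sample and the time of day, while the dissected tissue is described as frozen immediately. The paper describes pentobarbital anaesthesia for its mice, without saying whether the mice of the arrays received it.

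Immediate early genes are transcribed within minutes of a stimulus without new protein synthesis. In neurons, synaptic input and calcium entry activate kinases that act on CREB and SRF already bound at their promoters, and most of the transcripts decay quickly. Several encode transcription factors that switch on later genes, and in the brain they are used as marks of recent neuronal activity, seizure, stress or handling.

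Each gene was represented by the probe set that was brightest on average over both arrays, as its MAS5 signal, a linear intensity, and the comparison was the log2 ratio of mutant over wild-type. A background level was taken from 185 probe sets of gene families expected to be silent in brain, among them olfactory, taste and vomeronasal receptors, as their 95th percentile. It was 62.2 for the wild-type array and 54.6 for the mutant array. A gene was counted as measured when at least 1 array lay above its level, unless the level alone set the direction of its ratio. This held for 13281 genes and for all 10 immediate early genes. With 1 array per genotype there was no replicate, so variation from mouse to mouse could not be measured and no test was made. Every difference below is therefore between these 2 samples, and genotype cannot be told apart from handling, time of day or chance differences between the mice sampled.

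The immediate early genes did not move as a block. Npas4, Fos and Ier2 had signals 4.58-fold, 2.2-fold and 1.9-fold higher in the mutant, while Nr4a1 was 1.74-fold lower and Egr1, the brightest of them, differed by 1.05-fold. Of the 10, 7 were higher and 3 lower, beside 51.6% and 48.4% of all measured genes. At 1.5-fold, 3 were higher, 1 was lower and 6 lay within, whereas 3.64% of measured genes were higher and 3.39% lower by that much and 93% lay within. At 2-fold, 2 were higher and 0 lower, beside 0.61% and 0.964%. Past a log2 ratio of 0.32 in either direction, 7 were higher and 2 lower, beside 11.9% and 10.7%. The median log2 ratio of the 10 was 0.40, and that of all measured genes was 0.010 with an SD of 0.35 across genes. Because the 10 were chosen with earlier results of these data known, these shares and medians only describe them.

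**Figure D1:**
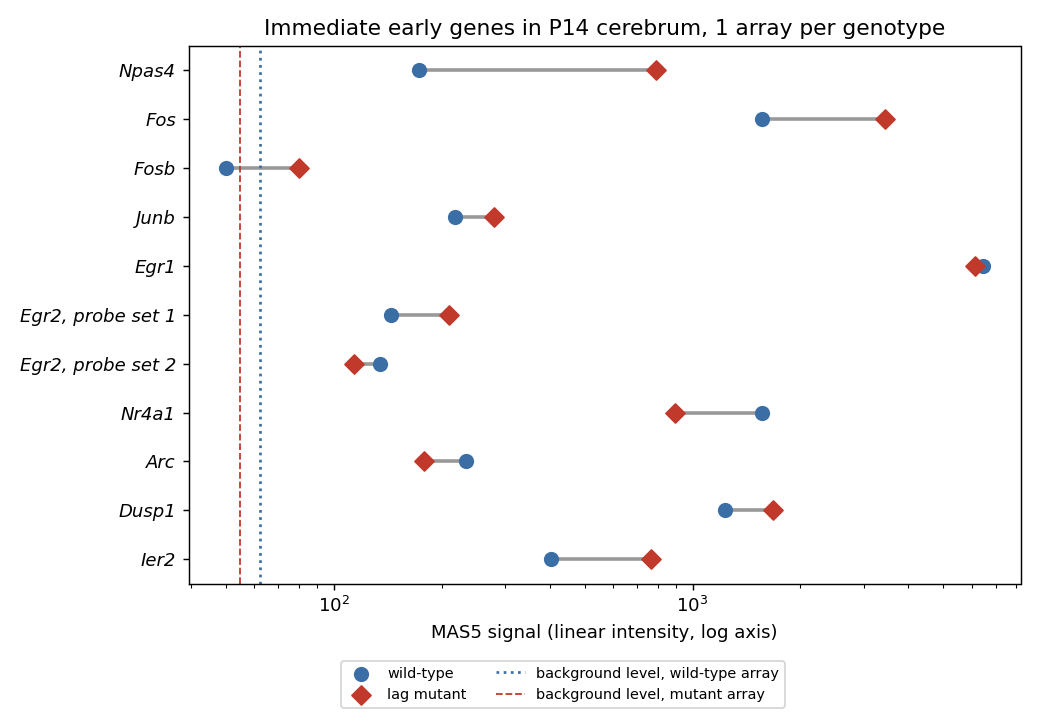
MAS5 signal (log axis) of the 11 probe sets of the 10 immediate early genes on the wild-type array (circles) and the lag mutant array (diamonds), joined by a line, with the background level of each array as vertical lines. Npas4 runs from 172.6 to 790.2, Nr4a1 runs the other way from 1564.1 to 896.4, the 2 Egr2 probe sets point in opposite directions, and the wild-type signal of Fosb lies under background.

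The promoters of Npas4, Fos and Nr4a1 are shown because these genes had the 2 highest log2 ratios and the lowest among the 10 and all carry the core letters of the cAMP response element (CRE), the sequence that CREB recognises. The sequences are those of RefSeq on GRCm38.p6, the 250 bases before an annotated transcription start, 5′ to 3′ on the strand of the gene. Capitals mark TGACG or its reverse complement CGTCA. Npas4 lies at chr19:4989972-4990221 on the minus strand, Fos at chr12:85473640-85473889 on the plus strand and Nr4a1 at chr15:101266596-101266845 on the plus strand.
Npas4: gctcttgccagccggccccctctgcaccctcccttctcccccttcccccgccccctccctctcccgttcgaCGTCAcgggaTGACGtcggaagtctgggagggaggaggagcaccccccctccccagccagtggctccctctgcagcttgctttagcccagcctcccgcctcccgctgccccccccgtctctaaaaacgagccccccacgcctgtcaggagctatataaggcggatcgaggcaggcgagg
Fos: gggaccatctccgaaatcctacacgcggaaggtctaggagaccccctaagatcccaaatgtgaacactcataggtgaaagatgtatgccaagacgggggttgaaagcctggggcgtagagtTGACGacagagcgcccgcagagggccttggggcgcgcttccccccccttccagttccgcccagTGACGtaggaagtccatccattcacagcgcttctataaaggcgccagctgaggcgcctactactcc
Nr4a1: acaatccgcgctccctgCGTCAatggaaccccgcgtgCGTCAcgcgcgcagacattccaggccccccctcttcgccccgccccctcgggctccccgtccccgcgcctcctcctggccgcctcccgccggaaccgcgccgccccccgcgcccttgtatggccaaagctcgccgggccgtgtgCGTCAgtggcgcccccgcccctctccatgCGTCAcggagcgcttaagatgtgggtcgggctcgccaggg

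Npas4 and Fos each held 2 of these cores and Nr4a1 held 4. In Npas4 the cores lay 179 to 175 and 169 to 165 bases before the start, on opposite strands. In Fos they lay 129 to 125 and 66 to 62 bases before it, with TATAAA at 33 to 28. In Nr4a1 they lay 233 to 229, 213 to 209, 69 to 65 and 40 to 36 bases before it. Over 32536 different promoter windows of that length, with both strands searched and overlapping matches counted, 17.9% held at least 1 core, 3.92% at least 2 and 0.138% at least 4. The printed promoters were picked by the ratios of their genes, and a relation of core counts to ratios was not tested. Promoter windows were searched for 7 of the 10 genes. Egr1 was left out of the search, and Arc and Ier2 had no promoter entry. Dusp1 held 3 cores, of which 2 formed a full CRE (TGACGTCA, in 1.56% of windows), and Fosb and Junb held 1 each. Egr2 has 5 annotated starts, whose windows held from 0 to 2 cores and, in 4 of them, the CArG box to which SRF binds, a motif present in 1.48% of all windows. Several of these Egr2 windows overlap, so the same cores and the same box are counted more than once. The letters GCGNGGGCG, an EGR site, occurred once each in Fosb and Nr4a1 and in 4.74% of windows. Neither the AP-1 site TGANTCA nor the NR4A site AAAGGTCA, in 6.73% and 1.35% of windows, was found in the windows of the 7. TATAAA, in 12.3% of windows, was found in Fos alone among them. These matches describe letters in 1 window per start and say nothing of binding in these samples.

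Npas4 (NCBI Gene 225872) encodes a neuronal transcription factor of the bHLH-PAS family that responds to calcium entry and regulates inhibitory synapses. The signal of its single probe set was 172.6 in wild-type and 790.2 in mutant cerebrum, a log2 ratio of 2.19. This was the highest log2 ratio of the 13281 measured genes, where genes under background on 1 array were ranked by their bounds. The lower Npas4 signal was 2.77 times the background level of its array. Npas4 ranked 6 when background was set at the 90th percentile and 3 when background came from receptor families alone. It ranked 3 with a pseudocount of 50 added to each signal and 377 of 18194 genes with no background level. Among 4831 genes whose mean signal lay within 2-fold of its own, no other had so high a ratio. Its partner proteins, encoded by Arnt and Arnt2, did not show 1 pattern. Arnt was 239.0 in wild-type and 510.4 in mutant cerebrum on its brightest probe set, but 282.4 and 273.1 on the next, and Arnt2, named for this partnership, was 3056.7 and 2987.7.

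The 3 AP-1 subunits among the 10 were also higher in the mutant, with smaller ratios. Fos (NCBI Gene 14281), whose product pairs with Jun proteins, was 1562.4 in wild-type and 3436.6 in mutant cerebrum, a log2 ratio of 1.14. It ranked 57 of the measured genes from the highest, and 5 of 3085 genes of like signal (0.162%), itself included, had a ratio as high. Junb, a Jun subunit that tempers the activity of c-Jun, was 217.2 and 279.1, a log2 ratio of 0.36. A ratio that high was common at its brightness, in 542 of 4104 genes of like signal (13.2%). Fosb, a second partner of the Jun proteins, was the dimmest of the 10 at 50.2 in the wild-type, under background, and 79.8 in the mutant. It was therefore at least 1.28-fold higher, and its log2 ratio was 0.67 where the signals were taken as deposited.

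The other AP-1 genes did not share the ratio of Fos. Of 9 AP-1 relatives, 7 were measured, 5 with a higher and 2 with a lower mutant signal, and their median log2 ratio was 0.04. The brightest were Jund, at 2738.2 in wild-type and 2335.0 in mutant cerebrum, and Jun, at 1139.7 and 1165.6. Atf3, a stress-induced member of the ATF family, was past 1.5-fold in the direction opposite to Fos, at 113.7 and 28.2, at least 2.08-fold lower. With background at the 99th percentile, 161.7 in wild-type and 132.8 in mutant, both Atf3 signals lay under background. The list median was 0.13 at that setting. Fosl1 and Batf lay under background on both arrays.

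The EGR genes, zinc finger factors induced through SRF, lay within 1.5-fold with the deposited scaling, and Egr2 reached a log2 ratio of 0.60 under quantile normalization. Egr1 was the brightest of the 10 at 6441.4 in wild-type and 6115.9 in mutant cerebrum, a log2 ratio of -0.07. Of 1320 genes of like signal, 368 (27.9%) lay at or below that ratio. The log2 ratios of Npas4 and Fos exceeded that of Egr1 by 2.27 and 1.21, which shows unequal change within this pair of arrays. Egr2, which is also the master regulator of myelination in peripheral Schwann cells, gave opposite directions on its 2 probe sets. The brighter, whose probes are shared among transcript forms of the gene, was 144.8 and 209.1, a log2 ratio of 0.53. The other was 134.5 and 113.5, a log2 ratio of -0.25. A gap of that size or more, 0.775, was seen in 4.71% of 5696 genes with at least 2 measured probe sets, whose median gap was 0.206, so the direction of Egr2 is not settled, and it is counted among the higher genes by its brighter probe set alone. Of the 4 EGR relatives and their NAB corepressors, 3 were higher and 1 lower, and the median log2 ratio was 0.16. All 4 lay within 1.5-fold, as did 93% of all measured genes. Egr3 was 2867.4 and 3265.8, and Nab1, which binds EGR proteins and represses them, was 2247.6 and 2455.1.

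Nr4a1 (NCBI Gene 15370), which encodes the orphan nuclear receptor Nur77, was the 1 gene of the 10 past 1.5-fold in the lower direction. Its single probe set was 1564.1 in wild-type and 896.4 in mutant cerebrum, a log2 ratio of -0.80. It ranked 213 of the measured genes from the lowest, and 31 of 4482 genes of like signal (0.692%), itself included, had a ratio as low. The log2 ratio of Npas4 exceeded that of Nr4a1 by 3.0, a 7.99-fold difference of ratios, that of Fos by 1.94 and that of Ier2 by 1.73. The closest relatives of Nr4a1 had higher, not lower, mutant signals. Nr4a2, the receptor Nurr1, was 1942.1 in wild-type and 3153.0 in mutant cerebrum, a log2 ratio of 0.70, and its 3 other measured probe sets gave 0.64 to 0.90. Nr4a3, the receptor Nor1, was 1414.2 and 1538.4, a log2 ratio of 0.12. The log2 ratios of Nr4a2 and Nr4a3 exceeded that of Nr4a1 by 1.5 and 0.92, which shows unequal change within the family on these arrays.

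**Figure D2:**
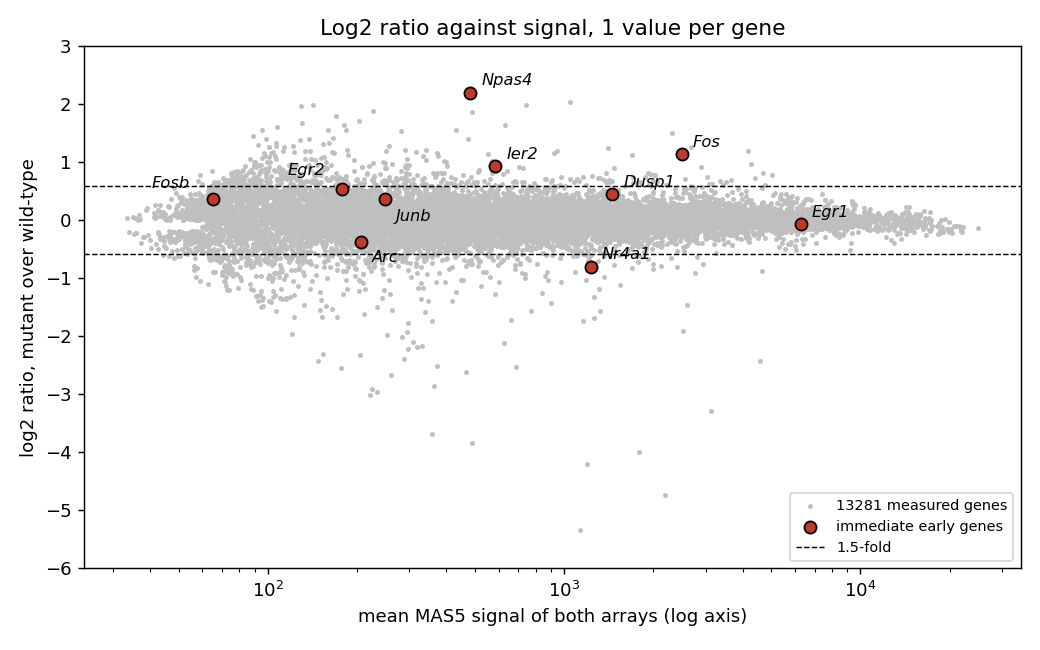
Log2 ratio of mutant over wild-type against the mean MAS5 signal of both arrays (log axis) for the 13281 measured genes (grey), with the 10 immediate early genes marked and dashed lines at 1.5-fold. Npas4 lies highest at 2.19, Fos and Ier2 lie above the upper line, Nr4a1 lies below the lower line at -0.80, and the remaining 6 lie between the lines.

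In the plot of ratio against signal, the scatter of all genes narrowed as signals grew, so a given ratio is less common at high than at low signal. The SD of the log2 ratio over genes of like signal was 0.449 around Fosb and 0.238 around Egr1. The ratios of Fos, Ier2, Nr4a1 and Npas4 lay at brightnesses where that SD was 0.258, 0.321, 0.283 and 0.333. This is a spread across genes on 1 pair of arrays and not an error between mice.

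The immediate early genes that are not transcription factors of these families also differed in direction. Arc, a synaptic protein that removes AMPA receptors and whose mRNA travels into dendrites, was 233.6 in wild-type and 178.9 in mutant cerebrum, a log2 ratio of -0.39. Of 3911 genes of like signal, 463 (11.8%) had a ratio as low. The log2 ratios of Npas4 and Fos exceeded that of Arc by 2.58 and 1.52. Ier2, which encodes a nuclear growth-response protein, was 404.4 and 766.6, a log2 ratio of 0.92. It ranked 110 from the highest, and 24 of 4919 genes of like signal (0.488%), itself included, had a ratio as high. Dusp1, a phosphatase that inactivates MAP kinases, was 1229.7 and 1676.0, a log2 ratio of 0.45, and 113 of 4216 genes of like signal (2.68%) had a ratio as high. Of 8 other dual specificity phosphatases, 2 were higher and 6 lower, with a median log2 ratio of -0.11. All 8 lay within 1.5-fold, as did 93% of all measured genes. Their summed signal was 6090 in wild-type and 6615 in mutant cerebrum. The brightest were Dusp6, a phosphatase of ERK, at 2101.4 and 2915.3, and Dusp8 at 1733.7 and 1685.7, whose other probe sets went both ways, at 1464.8 and 1197.3 and at 179.1 and 274.9.

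Of 26 further rapid primary response genes, 24 were measured, 13 with a higher and 11 with a lower mutant signal, and their median log2 ratio of 0.04 was close to that of all genes. In this list 3 of 24 were at least 1.5-fold higher and 1 lower, larger shares than the 3.64% and 3.39% of all measured genes. Zfp36, which promotes decay of short-lived mRNAs, was 92.5 in wild-type and 272.4 in mutant cerebrum, a 2.94-fold difference. Its wild-type signal lay near the background level of 62.2 and under the 99th percentile level of 161.7. Ier3, a stress-response gene, was 218.3 and 640.3, a 2.93-fold difference. Ccn1, a secreted matrix protein, was 192.7 and 397.5, a 2.06-fold difference, and its 3 other measured probe sets were also higher. Trib1, a pseudokinase, was the 1 gene at least 1.5-fold lower, at 117.8 and 70.0, the latter near the mutant background level of 54.6. The brightest genes of the list were Mcl1, at 2842.0 and 2965.0, and Klf6, at 1408.2 and 1761.6, whose 4 other probe sets had log2 ratios from 0.45 to 0.81.

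Of 20 effectors that neuronal activity switches on later, 19 were measured, 13 higher and 6 lower, 16 of them within 1.5-fold, a smaller share than the 93% of all measured genes, with a median log2 ratio of 0.18. The 2 past 1.5-fold upward were Cort, a neuropeptide of inhibitory neurons, at 172.7 in wild-type and 322.2 in mutant cerebrum, and Inhba, an activin subunit, at 185.4 and 281.9. Acvr1c, a receptor of the activin family, was 126.4 and 77.3, 1.64-fold lower, although its next probe set was 67.0 and 84.0. The brightest were Rheb, a GTPase that activates mTOR, at 8644.8 and 10298.2, and Scg2, a granin of secretory vesicles, at 6863.9 and 7003.0. The neurotrophin Bdnf, named after its value was seen, was 454.9 and 438.6.

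**Figure D3:**
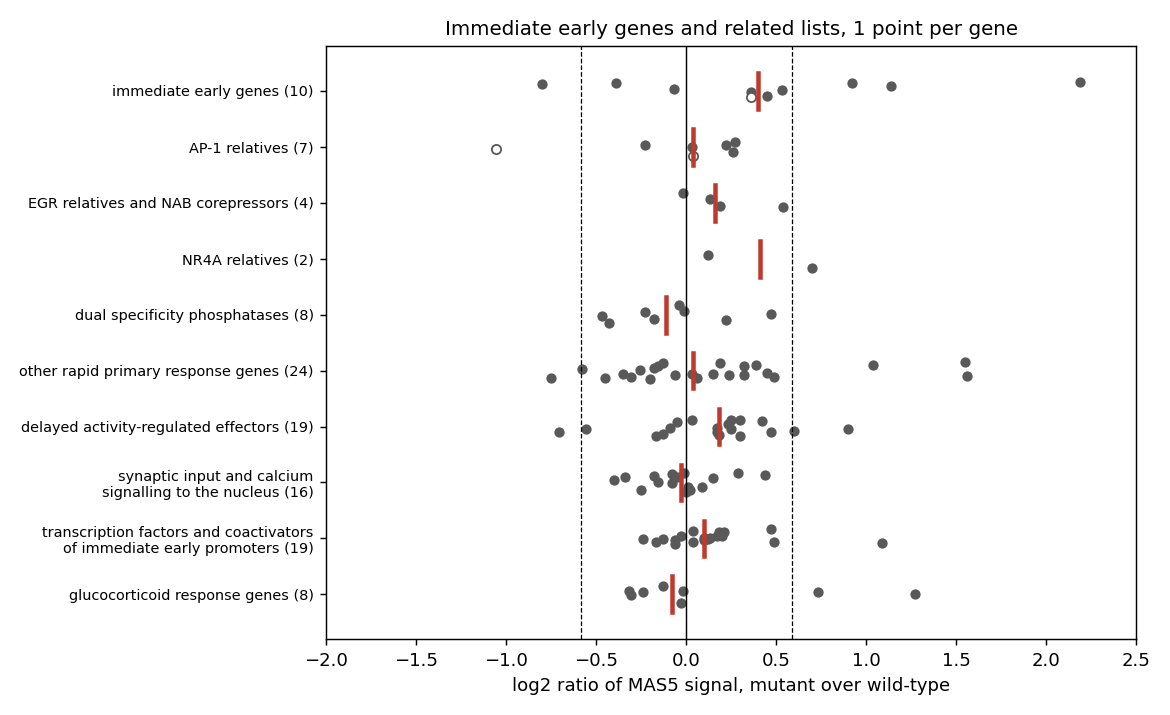
Log2 ratio of mutant over wild-type, 1 point per measured gene, for the 10 immediate early genes and 9 related lists, with the number of measured genes in brackets, list medians as vertical bars, open points for bounds and dashed lines at 1.5-fold. The immediate early genes span -0.80 to 2.19, wider than any other list shown, and the list medians lie between -0.11 and 0.41.

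The plot of lists also holds the machinery upstream of these genes. Of 23 genes of synaptic input and calcium signalling to the nucleus, 16 were measured, 6 higher and 10 lower, with a median log2 ratio of -0.03. All 16 lay within 1.5-fold, as did 93% of all measured genes. The brightest were the calcineurin subunits Ppp3cb, at 13241.0 in wild-type and 13219.7 in mutant cerebrum, and Ppp3ca, at 10015.7 and 10190.0. Of 20 transcription factors and coactivators of immediate early promoters, 19 were measured, 13 higher and 6 lower, with a median of 0.10. Arnt was the 1 gene past 1.5-fold, beside 3.64% of all measured genes higher by that much. The brightest were Mef2c, at 8547.8 and 9301.8, and Atf2, at 4409.1 and 4727.0.

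Glucocorticoid response genes were listed because stress and handling also change immediate early genes. Of 8, 2 were higher and 6 lower, with a median log2 ratio of -0.08. The 2 higher genes were past 1.5-fold, beside 3.64% of all measured genes. These 2 were Sult1a1, a sulfotransferase, at 149.4 in wild-type and 360.8 in mutant cerebrum, and Fkbp5, a cochaperone of the glucocorticoid receptor, at 731.5 and 1217.4. A dimmer Fkbp5 probe set was 104.4 and 96.5. The brightest of the list were Nfkbia, at 3801.7 and 3044.3, with log2 ratios from -0.61 to 0.13 on its other probe sets, and Sgk1, at 2652.8 and 2240.6. The part of stress hormones in the ratios of the immediate early genes was not tested.

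Markers of several cell types differed beside these results, and in bulk tissue fewer cells of a type cannot be told apart from less RNA per cell. The 8 general neuron markers had a summed signal of 92500 in wild-type and 91256 in mutant cerebrum. Of these, 3 of 8 were higher, with Stmn2 and Snap25 the brightest. Oligodendrocyte markers were past 1.5-fold lower in 5 of 5, with a sum of 29970 and 1969. Inhibitory neuron markers were lower in 7 of 8 and past 1.5-fold in 4, with a sum of 20714 and 18596. Excitatory neuron markers were higher in 3 of 5, with a sum of 10127 and 12058, and microglia and macrophage markers in 7 of 8, with 8351 and 10028. Markers of the dentate gyrus were lower in 4 of 4, with 618 and 454. Their wild-type signals, 141.3 to 169.9, lay near the 99th percentile background level of 161.7. A second Dsp probe set was higher, at 99.2 and 124.0. Markers of the striatum were lower in 5 of 5, with 6079 and 5214, and all 5 lay within 1.5-fold. Among them Drd1 was 1272.4 and 1264.3, and its other probe set was 585.1 and 626.9. Markers of pericytes and meningeal fibroblasts were higher in 5 of 6, with 11185 and 13234. Choroid plexus markers were higher in 3 of 5. Their sum, 23500 and 21946, was mostly Ttr, whose 4 probe sets had log2 ratios from -0.13 to 0.35. Astrocyte markers were higher in 2 of 6, with 34269 and 31162, endothelial markers in 2 of 6, with 3470 and 3071, and the 1 measured blood marker was lower. The part of these shifts in the ratios of the immediate early genes was not tested.

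**Figure D4:**
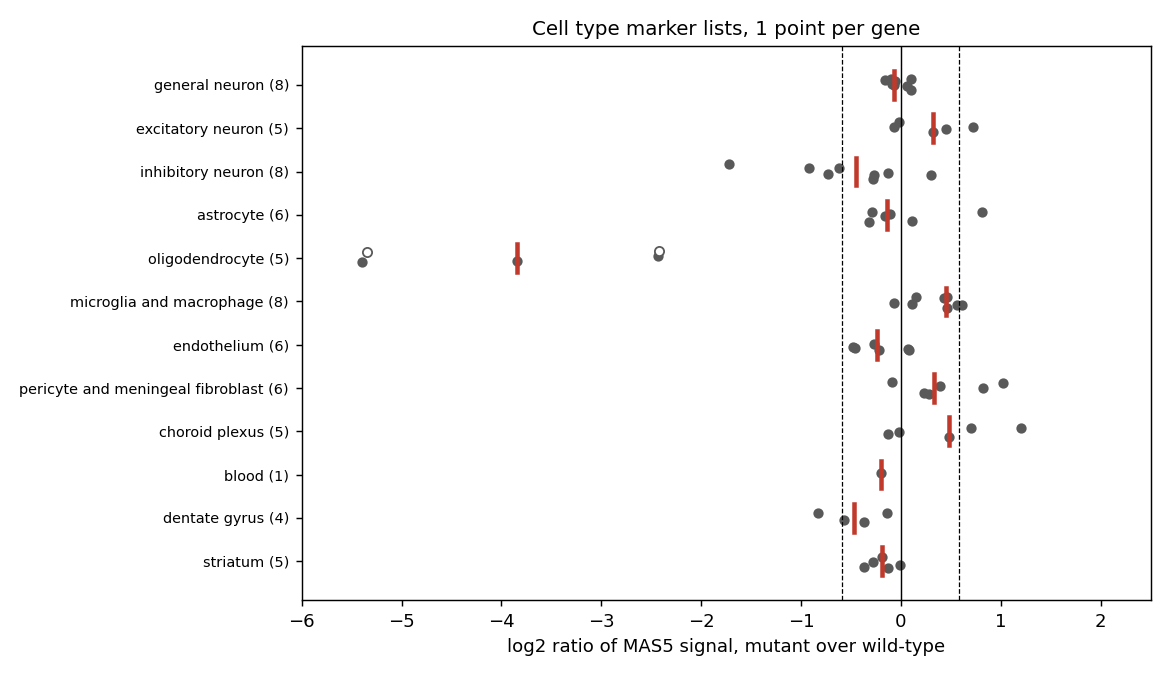
Log2 ratio of mutant over wild-type, 1 point per measured gene, for 12 marker lists, with the number of measured genes in brackets, medians as vertical bars, open points for bounds and dashed lines at 1.5-fold. General neuron markers have a median of -0.07, inhibitory neuron markers of -0.45 and oligodendrocyte markers of -3.84.

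In the plot of marker lists the general neuron markers range from -0.16 to 0.10 on their brightest probe sets, at signals where the spread across genes is small. Dimmer measured probe sets of these genes ranged more widely, from -0.62 (Syt1) to 0.68 (Snap25). Signals at the transcript ends, a sign of RNA integrity, were alike on both arrays: the 3′ to 5′ signal ratio was 1.55 (wild-type) and 1.38 (mutant) for Actb, and 0.819 and 0.772 for Gapdh. Median signals over all probe sets were 104.5 and 98.3. Kif14 itself lay under background on both arrays, at 6.85 and 0.733, and does not check the labels. Of the brightest oligodendrocyte markers, Mbp was 18812.1 and 444.3 and Cnp was 7730.0 and 1433.6, the lower signal being in the array labelled mutant.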

How the data were processed

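Total RNA of P14 cerebrum was measured on 2 arrays, 1 wild-type and 1 mutant. The authors calculated 1 signal per probe set with MAS 5.0, default settings and global scaling. The deposited table holds intensities on a linear scale and no detection calls. The target of the scaling was not given in the sources used. Of 45101 probe sets, 34958 were paired with 1 gene by the platform annotation, 932 with several and 9211 with none. Symbols were updated through RefSeq identifiers on GRCm38.p6 (34754 matched), giving 18194 genes. A gene took its probe set of highest mean signal. Signals below the background level were set to that level, giving a bound, and no fold was given where this alone set the direction.

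The members and lists were chosen with earlier results of these data known. The genes named are all 10 members, and in each pathway list those past 1.5-fold and the 2 brightest, and in marker lists the 2 brightest where given. Outside this rule are Arnt2, Bdnf, Fosl1 and Batf, chosen after their values were seen. Genes of like signal have a mean within 2-fold. No test was made, since there were no replicates. Scripts were tested on simulated data. Python 3.11.15, numpy 2.4.6, pandas 2.3.3 and matplotlib 3.10.9 were used. The 2 arrays limit the precision.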

Additional observations from a re-analysis of the deposited data

How the results depend on the processing

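Quantile normalization, median scaling, other rules for probe sets, other background levels, a pseudocount of 50 and other fold limits were tried, and a background level from receptor families alone was added after seeing the data. Of 89 values for single immediate early genes, 81 moved by at most 0.1 on the log2 scale. The log2 ratio of Egr2 was -0.25 with probe sets without a suffix and 0.14 with the mean over its probe sets. Fosb was 0.67 with the 90th percentile, no level or the receptor level, and was not measured at the 99th. The count at least 1.5-fold higher, 3, was 7 past a log2 ratio of 0.32, 2 at 2-fold, and 4 under quantile normalization (Egr2, 0.60) or with the 90th percentile, no level or the receptor level (Fosb). The count lower, 1, was 2 past a log2 ratio of -0.32 and 0 at 2-fold. The gap of 3.0 between Npas4 and Nr4a1 was 2.69 with the pseudocount, which put Npas4 at 1.92. Npas4 ranked from 1 to 6 with a background level and 377 of 18194 genes without one. Among 81 values for list medians 3 changed sign, those of the other rapid primary response genes (-0.093) and of synaptic input (0.009) without suffixed probe sets, and of the glucocorticoid response genes (0.056) with the mean over probe sets. The causes were not tested. No paired analysis was possible because there was 1 array per genotype, and no replicate could be left out.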
